A study of Saccharomyces cerevisiae with 4 samples.

Results

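Nitrogen catabolite repression is the shutting down, in budding yeast (Saccharomyces cerevisiae), of genes for the use of poor nitrogen sources while a preferred source such as glutamine or ammonium is at hand. The GATA factors Gln3 and Gat1 activate these genes, the GATA factors Dal80 and Gzf3 repress them, and Ure2 keeps Gln3 in the cytoplasm in nitrogen-rich cells. Allantoin, proline, GABA and urea are each taken up by a permease, broken down by enzymes of their own and sensed by pathway activators such as Dal82, Put3 and Uga3, and their nitrogen enters the cell's glutamate and glutamine. The genes described here are 36 genes of that system, taken by gene symbol from the array's probe annotation: genes for allantoin, proline, GABA, ammonium and glutamate use with their GATA factors. Of these, 35 have a probe set of their own among 5656 such genes in all. No probe set is annotated to DUR1,2, the urea-degrading enzyme, which was not analysed here.

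The comparison was of 2 arrays from cells whose histone H3 carries arginine at lysines 4, 36 and 79 with 2 arrays from wild-type cells. Cultures of both groups were grown to mid-log phase in selective galactose medium and moved to selective glucose medium for 9 h. Glucose represses the wild-type H3 gene, and mutant cells are then left with the mutant H3 as their one H3 made. H3 already in the nucleosomes at the shift is not removed by it, and neither the nitrogen source nor the strain background is given in the labels. The question was which genes depend on the mutated lysines, the H3 sites methylated by Set1, Set2 and Dot1.

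Each array gives 1 intensity per probe set. Signals below are intensities divided by the median of their array and brought to a common level (median-scaled signals, no unit), and a log2 change is the mutant minus wild-type difference of log2(signal + 5.71). The constant makes changes of dim genes look smaller. A gene is said to have passed the test where its limma p, adjusted by Benjamini-Hochberg over all 5656 genes, is under 0.05. Across all genes the arrays correlated with r = 0.983 within the mutant, 0.986 within wild type and 0.959 to 0.975 between the groups, and all 10 probe sets for ribosomal RNA were higher on both mutant arrays, by a median log2 change of 1.43, whose part in the results below was not tested. The H3 probe sets are annotated to both H3 genes at once and so do not check the labels. Precision is limited by the number of arrays: with 2 against 2, the smallest p of an exact permutation test is 0.33.

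None of the 35 nitrogen genes passed the test, where 106 of the 5656 genes (1.87%) did, 58 higher (1.03%) and 48 lower (0.849%) in the mutant. At an unadjusted limma p under 0.05, 4 of the 35 were higher, the allantoin and allantoate permease genes DAL4 and DAL5, the urea transporter gene DUR3 and the GABA activator gene UGA3, against 12% of all genes, and 3 were lower, the activator genes DAL81 and DAL82 and the GABA permease gene UGA4, against 11.2%. The mutant and wild-type arrays did not overlap for 16 of the 35 genes or 45.7%, against 55.2% of all genes. Of the 16, 11 were higher in the mutant (31.4% of the 35, against 28.1% of all genes) and 5 lower (14.3% against 27.2%). Log2 changes ran from -0.63 for DAL81 to 0.80 for DAL4 with a median of 0.13, beside a median of 0.02 over all genes. The median over the members was 0.17 and 0.25 when mutant array 1 was set against each wild-type array, and 0.09 and 0.07 for mutant array 2, where the medians of all genes were 0.06 and 0.07 for mutant array 1 and -0.04 and -0.04 for mutant array 2.

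The 95% interval of the log2 change, from limma and not adjusted for the number of genes, lay within -1 and 1 (a 2-fold change of signal plus 5.71) for 31 of the 35 genes. The 4 genes whose interval reached beyond were DAL2, DAL4, DAL81 and GLN1. In total 20 genes lay above 0 and 15 below (42.9%), where 47.9% of all genes lay below 0. On the values as deposited, without scaling, the median of all genes was -0.32, 10 of the 35 lay above 0 and 5 passed the test as lower (background 18.8%), and of the 1131 genes called there 5.84% were higher, against 54.7% of the 106 called on scaled values. Relative to the median of all genes, 15 of the 35 lay below it on either scale.

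**Figure D1:**
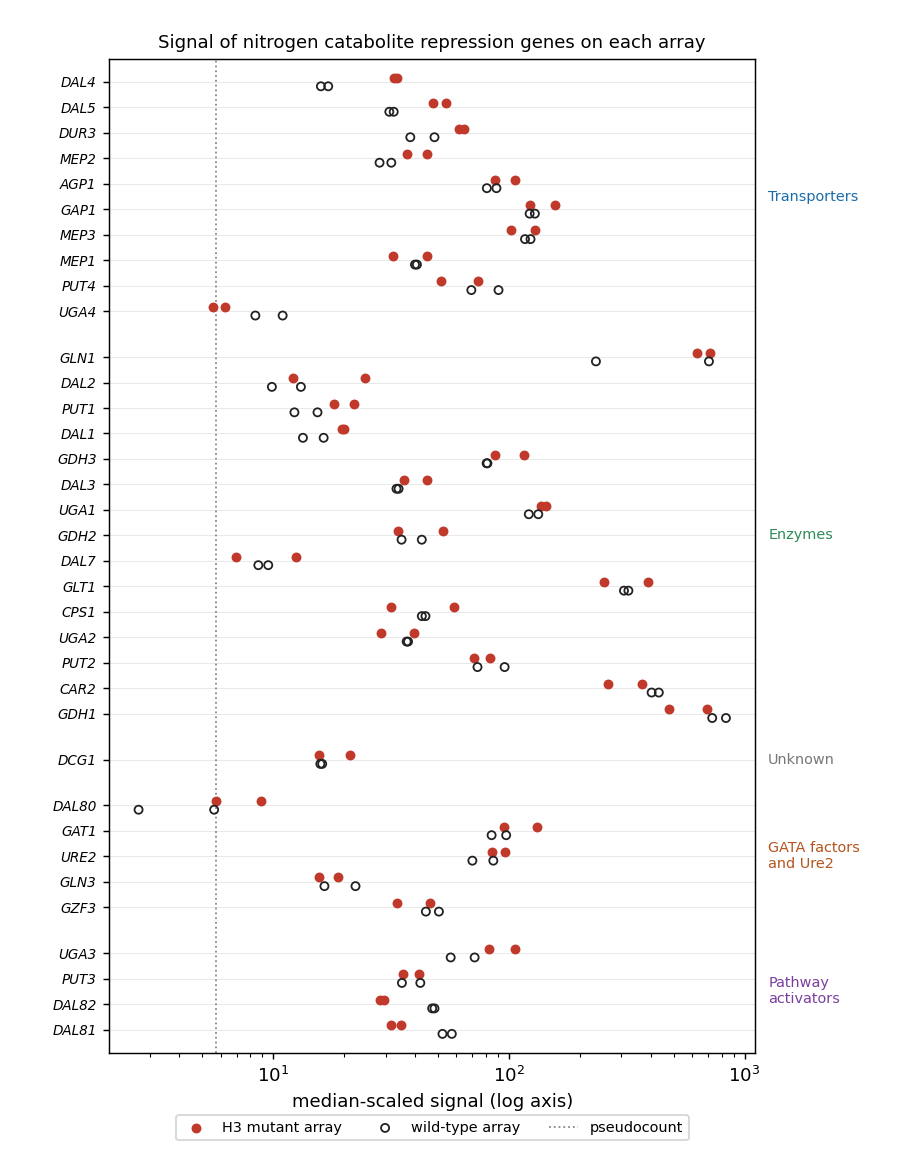
Median-scaled signal (log axis, no unit) of the 35 nitrogen genes on the 2 mutant arrays (filled) and the 2 wild-type arrays (open), grouped by role; the dotted line marks the pseudocount of 5.71. Arrays of the groups are separate for 16 genes, among them DAL4 with 32.6 and 33.6 on the mutant arrays and 17.1 and 16.0 on the wild-type arrays.

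**Figure D2:**
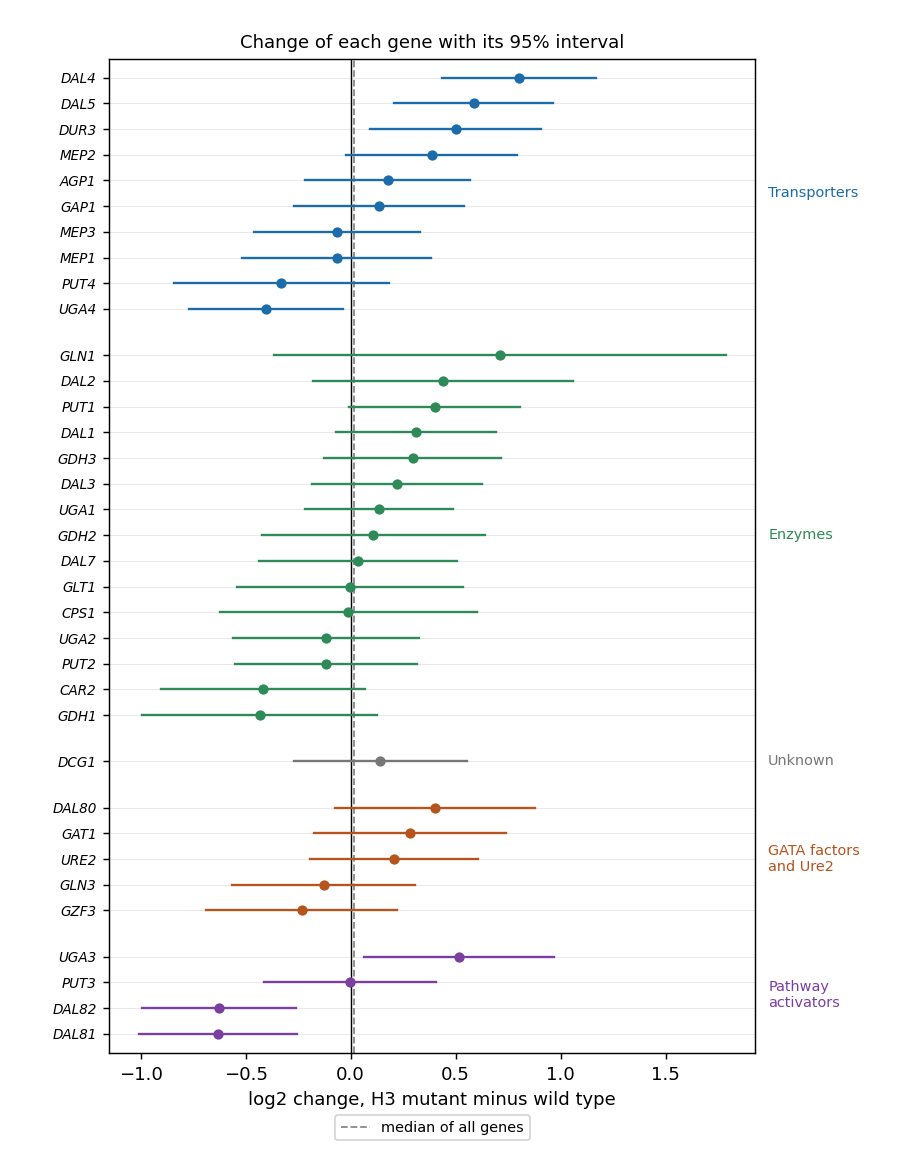
Log2 change (mutant minus wild type) of each gene with its 95% interval, ordered by value within each role; the dashed line is the median of all genes, 0.02. The intervals of DAL4, DAL5, DUR3 and UGA3 lie above 0 and those of UGA4, DAL82 and DAL81 below it.

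Transporters bring the nitrogen compounds into the cell, and 10 of their genes were measured. None passed the test. Their median log2 change was 0.16, with 6 above 0 and 4 below. On the values as deposited 4 lay above 0 and 6 below (median -0.22) with 1 passing as lower, against 18.8% of all genes. Without mutant array 1 the scaled median was 0.0027. The groups' arrays were apart for 5 of the 10 (55.2% of all genes), of which 4 were higher in the mutant (28.1% of all genes).

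DAL4, the allantoin permease gene, was the nitrogen gene nearest the threshold, at rank 135 of all genes by p. Its signal was 32.6 and 33.6 on the mutant arrays, against 17.1 and 16.0 on the wild-type arrays. Both mutant arrays thus lay well above both wild-type arrays and the arrays of each group differed little. The log2 change was 0.80 ± 0.16 (SE; limma adjusted p = 0.0539), with a 95% interval of 0.44 to 1.17. The call depended on the processing: it passed when genes with a mean signal of 11.4 or less were left out (adjusted p = 0.0492) and with limma's robust variance model (adjusted p = 0.0279), in a range of 0.00434 to 0.150 over 15 alternatives and the fit reported here.

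DAL5, the permease of allantoate and ureidosuccinate, read 53.9 and 47.6 on the mutant arrays, against 32.5 and 31.1 on the wild-type arrays. The groups did not overlap, and the log2 change was 0.59 ± 0.16 (SE; limma adjusted p = 0.0995). Its 2 other probe sets differed in sign: a dim set had 0.38 and 3.69 on the mutant arrays, against 7.59 and 5.38 on the wild-type arrays (log2 change -0.68), and a set with a suffix for shared sequence had 8.56 and 19.0, against 8.93 and 9.89 (0.31). The 3 probe sets of DAL5 thus did not all point the same way.

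DUR3, the urea transporter gene, had signals of 61.7 and 64.8 in the mutant, against 38.2 and 48.4 in wild type. Both mutant values lay above the wild-type ones, and the log2 change was 0.50 ± 0.17 (SE; limma adjusted p = 0.152). MEP2, the high-affinity ammonium permease that also serves as a sensor for filamentous growth, read 45.2 and 37.0 in the mutant, against 28.3 and 31.7 in wild type. The groups were apart here too, by less than the spread within the mutant, and the log2 change was 0.39 (adjusted p = 0.233).

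The other ammonium permease genes, MEP1 and MEP3, had log2 changes of -0.07 and -0.06, and for both the wild-type values lay between the mutant ones. MEP1 read 45.2 and 32.4 in the mutant, against 40.0 and 40.8 in wild type. MEP3 read 128.6 and 102.5, against 123.6 and 117. Whether MEP2 differs from MEP1 and MEP3 in its change was not tested.

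GAP1, the general amino acid permease gene and a standard reporter of this repression, read 156 and 123 in the mutant, against 123 and 129 in wild type. One mutant array lay at the level of the wild-type arrays and the other above them. Its log2 change was 0.13 with a 95% interval of -0.27 to 0.54 (limma adjusted p = 0.676), and without mutant array 1 it was -0.03. AGP1, a broad-range amino acid permease gene, likewise overlapped, with 107 and 87.1 in the mutant, against 80.7 and 88.6 in wild type (log2 0.18, adjusted p = 0.56; 0.039 to 0.32 with each array left out).

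PUT4, the proline permease gene, read 51.7 and 74.0 in the mutant, against 69.4 and 90.4 in wild type, which overlap (log2 change -0.33, adjusted p = 0.405; -0.57 to -0.092 with each array left out in turn). UGA4, the GABA permease gene, was dim throughout, at 6.28 and 5.54 in the mutant, against 11.0 and 8.41 in wild type. The groups were near the pseudocount and apart by less than the spread within wild type. The log2 difference was -0.40 with an SE of 0.16 (limma adjusted p = 0.187). The suffixed probe sets of UGA4 had lower mean signals. The log2 change was 0.16 for the set with 0.95 and 0.92 in the mutant, against 0.18 and 0.26 in wild type, far below the pseudocount. It was -0.25 for the set with 4.66 and 7.38 in the mutant, against 8.03 and 8.24 in wild type.

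Enzymes that break down the imported compounds or assimilate ammonium accounted for 15 of the genes. Their median log2 change was 0.11, with 9 above 0 and 6 below. On the values as deposited 4 lay above 0 and 11 below (median -0.24), with 2 passing as lower, against 18.8% of all genes. None passed the test on scaled values, and the arrays of the groups were apart for 5 in the higher and 2 in the lower direction, against 28.1% and 27.2% of all genes.

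DAL1, DAL4, DAL2, DCG1, DAL7 and DAL3 are 6 neighbours on the chromosome in that order, the DAL cluster of allantoin breakdown. The cluster was not one of the planned groups. All 6 log2 changes lay above 0 on scaled values, with a median of 0.27, where 47.9% of all genes lay below 0. On the values as deposited DAL3, DAL7 and DCG1 lay below 0. Without mutant array 1, 4 lay above 0 and 2 below, with a median of 0.07, and with quantile normalization 5 lay above 0. DAL1, the allantoinase gene, read 20.0 and 19.6 in the mutant, against 13.4 and 16.4 in wild type (log2 0.31, adjusted p = 0.292). DAL3, for ureidoglycolate lyase, read 45.0 and 36.0, against 33.4 and 34.1 (0.22, adjusted p = 0.482; 0.080 to 0.36 with each array left out).

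For both genes the groups were apart, for DAL3 by less than the spread within the mutant. DAL2, the allantoicase gene, read 24.5 and 12.2 in the mutant, against 13.1 and 9.89 in wild type, so that its log2 change of 0.44 came from mutant array 1 and was 0.06 without it. DAL7, a malate synthase isoenzyme gene of the cluster, had 12.5 and 6.96 in the mutant, against 8.66 and 9.54 in wild type, and a log2 change of 0.04. DCG1, repression-sensitive but of unknown function, had 0.14 and was -0.02 without mutant array 1. DAL4 was thus the cluster member with the groups farthest apart for the spread within them.

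In proline breakdown, PUT1, the proline oxidase gene, read 22.1 and 18.2 in the mutant, against 12.3 and 15.4 in wild type. The groups were apart by less than the spread within either, and the log2 change was 0.40 with an SE of 0.17 (limma adjusted p = 0.221). PUT2, for the next step of the pathway, overlapped, with 71.2 and 83.5 in the mutant, against 73.7 and 96.0 in wild type (log2 change -0.12). Transporter, oxidase and dehydrogenase of proline thus had estimates of both signs, none of which passed the test.

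In GABA breakdown, UGA1, the GABA transaminase gene, had a log2 change of 0.14, with 137 and 144 in the mutant, against 122 and 133 in wild type. UGA2, the succinate semialdehyde dehydrogenase gene, had -0.12 on the probe set used and 0.18 on a suffixed set. CAR2, the ornithine transaminase gene of arginine breakdown, read 369 and 263 in the mutant, against 404 and 433 in wild type. Both mutant values were lower, and they also lay far apart, so that the log2 change was -0.42 ± 0.21 (SE; limma adjusted p = 0.275), or -0.66 to -0.18 with each array left out. CPS1, for a vacuolar carboxypeptidase, read 31.6 and 58.4 in the mutant, against 42.8 and 44.3 in wild type, and had a log2 change of -0.01.

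Ammonium is built into glutamate by the NADP-dependent glutamate dehydrogenases Gdh1 and Gdh3 and into glutamine by Gln1, while Glt1 makes glutamate from glutamine and Gdh2 degrades glutamate. GDH1 read 479 and 695 in the mutant, against 834 and 729 in wild type. The groups were apart, but mutant array 2 lay close to the wild-type range, and the log2 change was -0.43 ± 0.24 (SE; limma adjusted p = 0.32), or -0.17 and -0.70 at the ends of the range when each array was left out in turn. GDH3, its isoenzyme gene, had 116 and 87.2 in the mutant, against 80.5 and 81.2 in wild type. Here the mutant values were the higher ones (log2 0.30, adjusted p = 0.364; 0.10 to 0.49 with each array left out), and below 0 on the values as deposited (-0.08). The difference between the changes of GDH1 and GDH3 was not tested.

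GLN1, the glutamine synthetase gene, was decided by a single array. It read 716 and 628 in the mutant, against 706 and 234 in wild type, so that wild-type array 2 stood apart from the other 3. The log2 change of 0.71 ± 0.46 (SE; limma adjusted p = 0.395) became -0.07 without wild-type array 2 and 1.50 without wild-type array 1, where it passed the test (adjusted p = 0.00991). GLT1, the glutamate synthase gene, read 390 and 253 in the mutant, against 322 and 308 in wild type, with a log2 change of 0.00 and an interval of -0.54 to 0.53. GDH2 had 33.8 and 52.5 in the mutant, against 35.1 and 42.8 in wild type (log2 0.11). For GLT1 and GDH2 the wild-type values lay between the mutant ones.

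The GATA factors act on most of these genes at once. None of the 5 genes of this group, the 4 factors and their inhibitor URE2, passed the test, and their median log2 change was 0.21 on scaled values and -0.16 on the values as deposited. GAT1, an activator gene that is itself under this repression, read 131 and 95.2 in the mutant, against 84.5 and 97.5 in wild type (log2 0.29, adjusted p = 0.421; 0.064 to 0.51 with each array left out). GLN3, the other activator gene, read 15.6 and 18.8, against 16.5 and 22.4 (-0.13, adjusted p = 0.708).

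Both overlapped between the groups. Of the repressor genes, DAL80, whose transcript is scarce in nitrogen-rich cells, was at the edge of measurement with 8.85 and 5.70 in the mutant, against 5.62 and 2.69 in wild type (log2 0.40, adjusted p = 0.28). That value was 0.72 with a pseudocount of 1, 0.26 with 11.4, and 0.19 to 0.62 with each array left out. GZF3 overlapped with 33.6 and 46.4 in the mutant, against 50.5 and 44.5 in wild type (-0.23, adjusted p = 0.512; -0.44 to -0.028 with each array left out). URE2 had a log2 change of 0.21 (adjusted p = 0.505; 0.070 to 0.34 with each array left out) with 96.3 and 85.1 in the mutant, against 86.0 and 70.1 in wild type.

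Of the 4 pathway activator genes, DAL81 and DAL82 had the lowest log2 changes of all 35 genes. Dal82 drives the allantoin genes in the presence of an inducer, and Dal81 acts with it there and with Uga3 on the GABA genes. DAL81 read 31.7 and 35.0 in the mutant, against 52.3 and 57.3 in wild type, and DAL82 read 28.4 and 29.5, against 47.3 and 48.4. For both genes the groups were far apart for the spread within them.

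The log2 change was -0.63 ± 0.16 for DAL81 (SE; limma adjusted p = 0.0857) and -0.63 ± 0.15 for DAL82 (adjusted p = 0.082). Neither passed. On the values as deposited both did, at -0.98 (limma adjusted p = 0.0129) and -0.97 (limma adjusted p = 0.0128). The median of all genes was -0.32 there, and 18.8% of all genes passed as lower. When each array was left out in turn, the estimates ran from -0.69 to -0.57 for DAL81 and from -0.65 to -0.60 for DAL82.

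UGA3, the activator gene of the GABA pathway, lay in the other direction, with 106 and 82.5 in the mutant, against 56.7 and 71.6 in wild type (log2 0.52 ± 0.19, SE; limma adjusted p = 0.172). The groups were apart by less than the spread within either. UGA3 has 3 dimmer probe sets. The set without a suffix read 1.43 and 2.10 in the mutant, against 0.62 and 1.82 in wild type, all below the pseudocount, and gave 0.11. The 2 suffixed sets differed in sign. The change was 0.42 for the set with 11.1 and 14.8 in the mutant, against 9.02 and 7.46 in wild type. It was -0.43 for the set with 13.2 and 34.9 in the mutant, against 30.3 and 33.2 in wild type. PUT3, the activator gene of proline use, had a log2 change of 0.00, at 35.6 and 41.5 in the mutant, against 42.1 and 35.2 in wild type. In all, 4 of the 35 genes had more than 1 probe set, and none of their 8 further sets passed the test in a fit of all 9335 probe sets (smallest adjusted p = 0.218).

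**Figure D3:**
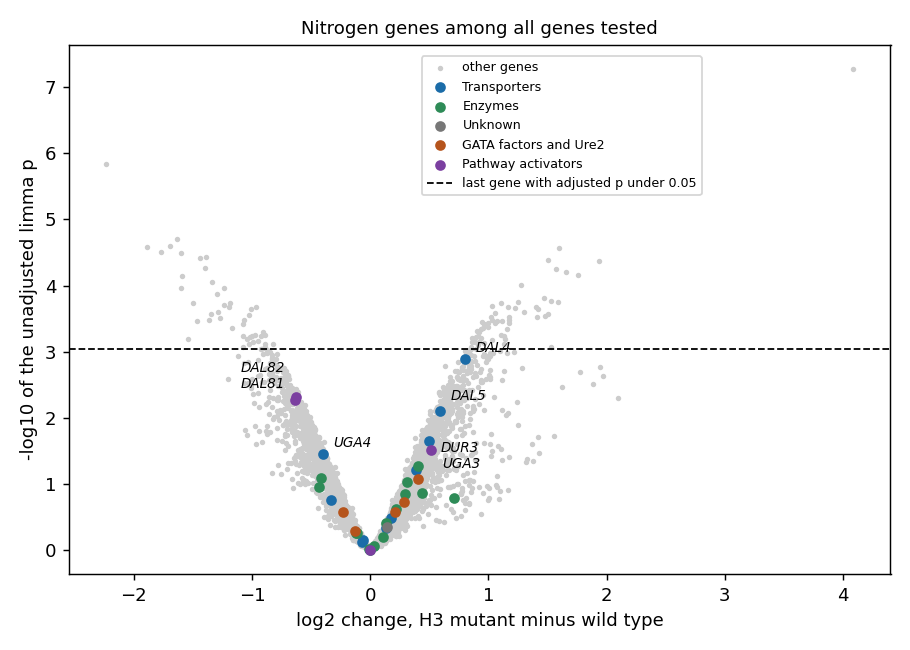
Log2 change (mutant minus wild type) against -log10 of the unadjusted limma p for all 5656 genes (grey) with the 35 nitrogen genes in colour by role; the dashed line is the last gene with an adjusted p under 0.05. All 35 lie below the line, DAL4 nearest to it, and the 7 genes with an unadjusted p under 0.05 are named.

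The 4 further lists hold other genes of nitrogen control, again described by their counts. Of 28 other genes known to be sensitive to nitrogen catabolite repression 24 were measured. None passed the test in the fit reported here. With the robust variance model 1 of the 24 was called higher and 1 lower, where 159 and 118 of all 5656 genes were. With the replicate number as a block 4 were called higher and 1 lower, where 425 and 283 of all genes were. On scaled values 19 lay above 0 and 5 below, with a median of 0.23, where 47.9% of all genes lay below 0. On the values as deposited 10 lay above 0 and 14 below, and 2 passed as lower, against 18.8% of all genes. The arrays of the groups were apart for 13 in the higher and 3 in the lower direction, against 28.1% and 27.2% of all genes. The lowest change was that of ATO3, a gene for ammonium export, which read 124 and 90.5 in the mutant, against 205 and 214 in wild type (log2 -0.95 ± 0.18, SE; limma adjusted p = 0.055). With quantile normalization (limma adjusted p = 0.0476), trimmed-mean scaling (0.0496) and the filter on dim genes (0.0492) ATO3 passed. It also passed with the robust variance model (0.0279), the replicate number as a block (0.000357) and on the values as deposited (0.00922). It did not with a pseudocount of 1 (limma adjusted p = 0.0577), the pseudocount doubled (0.0526) or in the fit of all probe sets (0.099). Nor did it without suffixed probe sets (0.0541) or without the variance trend (0.0685). In all, ATO3 passed in 7 of 16 fits, those with an array left out included. The highest change was that of OPT2, an oligopeptide transporter gene, at 0.82, with 18.6 and 29.2 in the mutant, against 19.3 and 5.20 in wild type. The OPT2 arrays overlapped, and wild-type array 2 stood apart (adjusted p = 0.249): the change was 0.22 without that array and 1.42 without wild-type array 1, where it passed (adjusted p = 2.37e-05).

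TORC1, the nutrient-sensing kinase complex that restrains Gln3 and Gat1, and other genes upstream of them made a list of 22, all measured. None passed, and the median was 0.06, with 14 above 0 and 8 below on scaled values, where 47.9% of all genes lay below 0. On the values as deposited 2 lay above 0 and 2 passed as lower, against 18.8% of all genes. The ends of the list were IML1, a gene of a TORC1-inhibiting complex, at 0.48 (adjusted p = 0.22), and GTR2, of the Rag-type GTPases that activate TORC1, at -0.50 (adjusted p = 0.155). Permease sorting by the ubiquitin ligase Rsp5 was covered by 8 of 9 listed genes. These had a median of 0.03 and none passed, with BUL1, an adaptor of Rsp5 that sorts Gap1, at 0.46 (adjusted p = 0.134) and ECM21, another adaptor, at -0.24 (adjusted p = 0.446).

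The remaining list held the SPS sensor of external amino acids with amino acid permeases, 18 genes with a median of 0.12. Of these, 15 lay above 0 on scaled values and 3 on the values as deposited. Without wild-type array 1, 10 lay above 0 and 8 below on scaled values. Of all genes, 47.9% lay below 0 in the fit reported. This list held the single gene of these lists that passed the test, SSY1, for the sensor protein of the SPS complex. SSY1 read 34.6 and 33.3 in the mutant, against 13.1 and 15.3 in wild type. The groups were far apart, and SSY1 rose by a log2 value of 0.99 ± 0.16 (SE; limma adjusted p = 0.0379), where 1.03% of all genes were called higher.

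That call was lost without mutant array 1 (adjusted p = 0.12) and without mutant array 2 (adjusted p = 0.0585), where no gene at all passed, with scaling to a trimmed mean (adjusted p = 0.0619) and in the fit of all 9335 probe sets (adjusted p = 0.0822), with estimates from 0.68 to 1.20 over all alternatives. PTR3 and SSY5, for the other subunits of the sensor, both had 0.05. SAM3, the S-adenosylmethionine permease gene, had 203 and 147 in the mutant, against 81.0 and 86.7 in wild type, which gave a log2 difference of 1.00 ± 0.19 (SE; limma adjusted p = 0.0516). SAM3 passed with quantile normalization (limma adjusted p = 0.0476), the filter on dim genes (0.0456) and the robust variance model (0.0261). It also passed with the replicate number as a block (0.000132). It did not with trimmed-mean scaling (limma adjusted p = 0.0552), on the values as deposited (0.0703) or in the fit of all probe sets (0.0943). Nor did it with a pseudocount of 1 (0.0539) or doubled (0.0510), without suffixed probe sets (0.0513) or without the variance trend (0.0631). In all, SAM3 passed in 6 of 16 fits, those with an array left out included. LYP1, the lysine permease gene, had the lowest change of the list, -0.24 (limma adjusted p = 0.41).

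**Figure D4:**
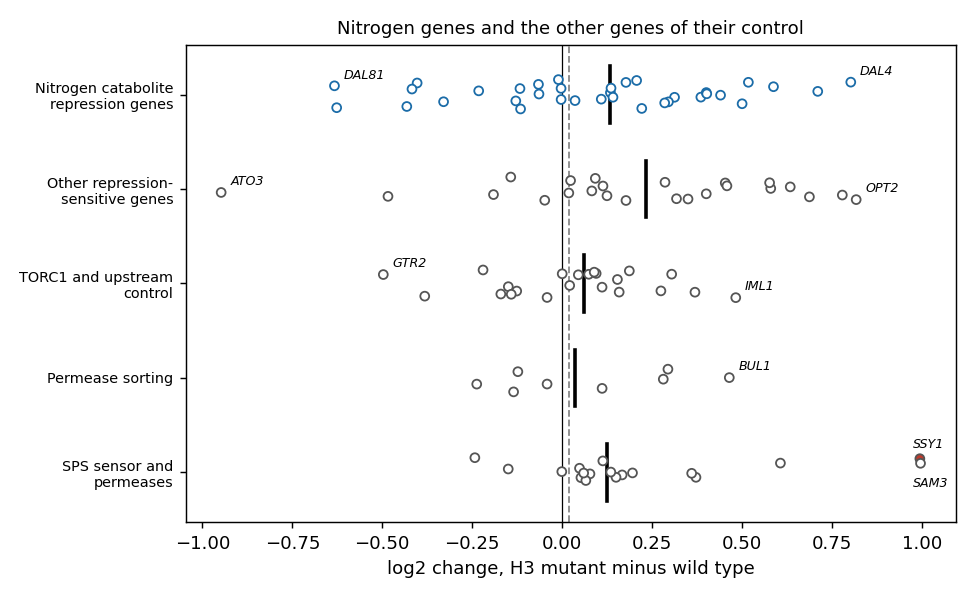
Log2 change (mutant minus wild type) of the 35 nitrogen genes and of the genes of the 4 other lists; each circle is a gene, spread vertically at random, a bar is the median of its list, and the dashed line is the median of all genes. The filled circle, SSY1, is the one gene shown with an adjusted p under 0.05.

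**Figure D5:**
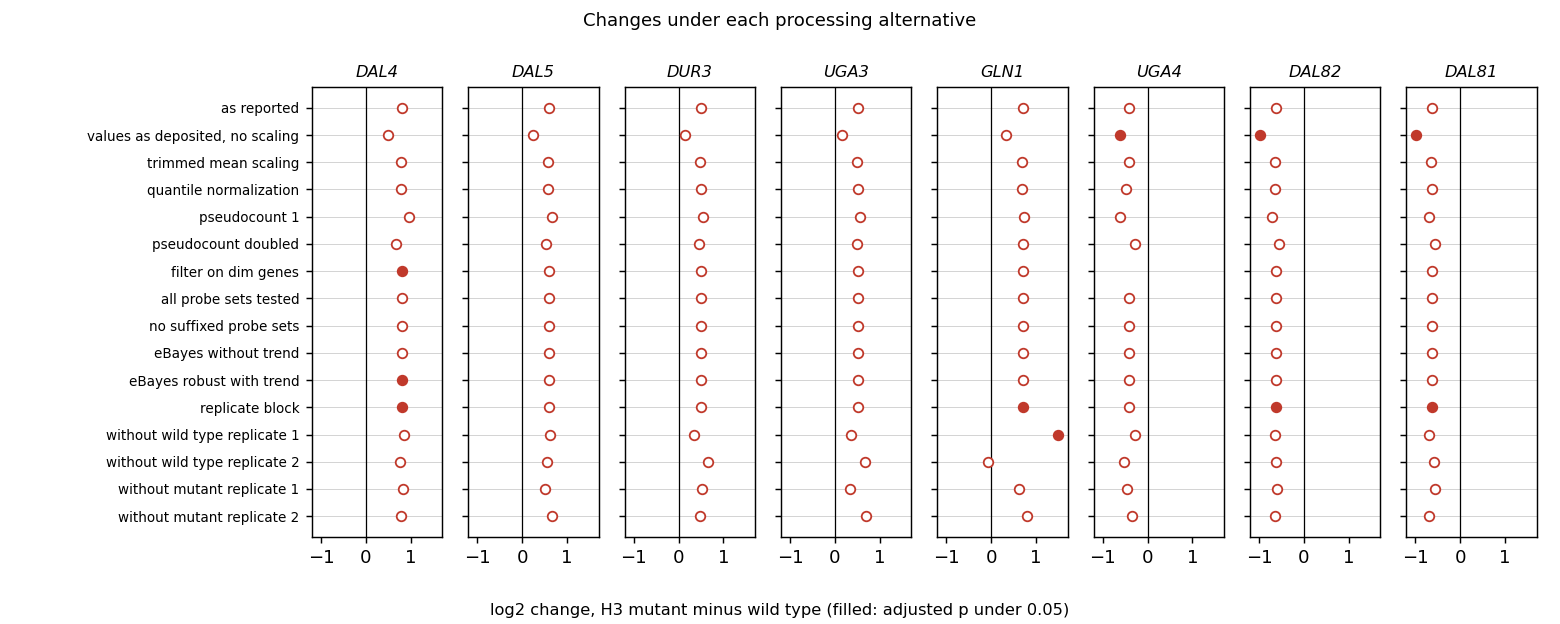
Log2 change (mutant minus wild type) of the 7 nitrogen genes with an unadjusted p under 0.05 and of GLN1 under the processing reported here (top row) and 15 alternatives, filled where the adjusted p is under 0.05. DAL4, DAL5, DUR3 and UGA3 stay above 0 and UGA4, DAL82 and DAL81 below 0 in every fit shown. These 7 were picked by p on the same arrays and their groups did not overlap, so leaving out an array could not turn a sign. Fits that changed only the variance model, the replicate block or the genes tested kept each estimate. GLN1 lies at -0.07 without wild-type replicate 2 and at 1.50 without wild-type replicate 1.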

How the data were processed

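Biotin-labelled cRNA from about 20 ug of total RNA per sample was hybridised to Affymetrix arrays, per the labels. The authors deposited 1 linear intensity per probe set and array. MAS5 is the tool that the submitters' processing notes name, with no version. The mutant columns carry further constants of 0.849 and 0.7, seen in their smallest steps.

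Intensities of the 9335 probe sets were scaled so that the 4 arrays shared 1 median, the mean of theirs. A pseudocount of 5.71, the 20th percentile of scaled values, was added before log2. For each gene with 1 symbol in the platform annotation, 1 probe set was used, without a suffix where there was one and then the brightest. Mutant minus wild type was tested two-sided with limma 3.58.1 (R 4.3.3; linear fit and empirical Bayes variances with a trend on level), adjusted over 5656 genes. The fit was tested on simulated data.

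Members and lists were chosen with earlier results of these data known. Named are all members, and of each other list the genes that passed and those with the highest and lowest change; the other SPS subunits, PTR3 and SSY5, were named after their values were seen. Older symbols in the lists were updated, and neighbouring genes taken, from the reference gene table of assembly R64.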

Additional observations from a re-analysis of the deposited data

How the results depend on the processing

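With 2 arrays a group, counts of calls moved with most choices. Genes called higher and lower were 11 and 21 in a fit of all probe sets, 159 and 118 with the robust variance model and 425 and 283 with the replicate number as a block; same-numbered arrays did not deviate together (r = -0.02 across genes), so the numbers were not taken to pair them. In other fits 38 were called higher with trimmed-mean scaling, 30 lower without the variance trend and 1065 lower on the values as deposited. Leaving out each array in turn gave 0 to 196 higher and 0 to 85 lower; a lone array is then assumed to vary like the other group. Among the nitrogen genes, 1 was called higher with the filter on dim genes (DAL4; DAL7, DAL80 and UGA4 were filtered out), 1 with the robust model (DAL4), 2 higher (DAL4, GLN1) and 2 lower (DAL81, DAL82) with the replicate block, 0 to 1 higher with an array left out (GLN1), and 5 lower on the values as deposited (CAR2, DAL81, DAL82, GDH1, UGA4). Their median was -0.24 as deposited and 0.064 to 0.30 with an array left out. Signs turned for genes that had not passed: on the values as deposited AGP1 had -0.20, DAL3 -0.12, DAL7 -0.20, DCG1 -0.15, GAP1 -0.25, GAT1 -0.090, GDH2 -0.24, GDH3 -0.078, UGA1 -0.25 and URE2 -0.16, where the median of all genes was -0.32, and DAL7 had -0.043 with quantile normalization. With an array left out, 13 turned, in ranges of -0.40 to 0.38 for CPS1, -0.22 to 0.30 for DAL7, -0.022 to 0.30 for DCG1, -0.034 to 0.30 for GAP1, -0.17 to 0.39 for GDH2, -0.074 to 1.50 for GLN1, -0.30 to 0.040 for GLN3, -0.31 to 0.30 for GLT1, -0.28 to 0.14 for MEP1, -0.22 to 0.092 for MEP3, -0.30 to 0.062 for PUT2, -0.12 to 0.11 for PUT3 and -0.31 to 0.084 for UGA2; the cause was not tested. Of the other named genes, SSY1 passed in 12 of 16 fits (that reported and 15 alternatives), ATO3 in 7, SAM3 in 6, OPT2 in 2 and GTR2 in 1. Over all alternatives 9 nitrogen genes stayed above 0, 7 stayed below and 19 took both signs. Fits that changed only the variance model, the replicate block or the genes tested kept every estimate, so no sign could turn there. Nor could leaving out an array turn the sign of a gene whose groups did not overlap. The share of all genes that kept their sign was not counted. No detection calls were used, so signals near the pseudocount, as for UGA4 and DAL80, have no measured floor.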
